A study of Mus musculus with 6 samples.

Results

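Genes of the major histocompatibility complex (MHC) and of the interferon response were compared between vestibular and cochlear sensory epithelia of newborn mice. The set was a fixed list of 40 genes, chosen with earlier results of these data known. It held class I and class II MHC genes, genes that supply and load peptides, transcription factors of the interferon pathway and genes that interferon induces. Only probe sets annotated to exactly 1 gene were read, and each gene was taken at its brightest probe set, the one with the highest mean over all arrays. By this rule 38 of the 40 genes had a value, from 73 probe sets in all, and 36 passed the filter on dim probe sets, out of 18193 genes with a probe set of their own and 14184 genes tested in the whole series. Ciita and Nlrc5 were measured but fell below the filter, and H2-T23 and Isg15 were read only by probe sets shared with other genes and have no value here. The vestibular tissue held the utricle, the saccule and both the anterior and the lateral cristae, and was set against the cochlear sensory epithelium, with 3 arrays of each. All animals were wild type mice of the C3H strain at postnatal day 2. Both tissues were dissected with the mesenchyme beneath them and the neurons attached to them and were pooled over several inner ears, so several cell types were mixed on every array.

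Class I molecules are displayed on most nucleated cells, pair a heavy chain with beta-2-microglobulin, and show T cells peptides cut by the proteasome and pumped into the endoplasmic reticulum. Class II molecules are made mainly by professional antigen-presenting cells such as macrophages, dendritic cells and B cells, and show peptides from ingested material. Interferons bind receptors that activate STAT proteins and the factor IRF9, which together bind a short promoter element and switch on antiviral genes and much of the class I pathway.

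Levels are log2 values computed by the authors with the robust multiarray average (RMA) method, and the deposited values carry 1 decimal. Each difference is the mean log2 value of the vestibule minus that of the cochlea, and 1.00 stands for a fold change of 2. A probe set was called differentially expressed when its adjusted p (Benjamini-Hochberg) was under 0.1 and the fold change was no smaller than 1.3, in a limma fit over the whole table. Levels of different genes come from different probes and are not compared with each other. The arrays had median log2 values of 5.6 to 5.7. Of all tested probe sets 19.4% were called, 12% with a higher level in the vestibule and 7.37% with a higher level in the cochlea, as 3563 and 2184 probe sets, a split that median centring of each array turned into 3018 and 2927. Hair cell markers were measured in both tissues, and 7 of 9 were called higher in the vestibule. Gfi1 led them at 3.10, before Lhx3 at 1.83, Otof at 1.53 and Espn at 1.50. Both epithelia hold hair cells, so these markers cannot show which organ an array came from and do not check the tissue labels. All p-values rest on the spread among 3 arrays per tissue, part of which may be technical, and the smallest p that exact permutation of 3 against 3 arrays allows is 0.1. The paper's methods give 3 replicates to each of 3 biological experiments, while 3 arrays per tissue were available here. The labels do not say which pool or replicate an array read.

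Most of the called genes of the set were higher in the vestibule. Of the 36 tested genes 17 were called higher in the vestibule, where 15.1% of all tested genes were, and 2 were called higher in the cochlea, where 7.97% of all tested genes were. The other 17 were not called, and 23.1% of all tested genes were called in either direction. These shares of all tested genes are also the background for the counts of each class and list below. The median difference over the 36 genes was 0.43, beside 0.03 over all tested genes. As the genes were chosen with earlier results of these data known, the counts and shares describe the set and do not test it. Among the 38 measured genes all 3 vestibular arrays read above all 3 cochlear arrays for 22, a pattern seen in 19.9% of all tested genes, and the reverse held for 2, a pattern seen in 12.4%. The 2 genes higher in the cochlea were H2-DMa, a class II peptide editor, and Ifitm1, an interferon-induced membrane protein. Of the 19 called genes, B2m, H2-DMa, Psmb9, Ifi30, Ifit2, Ifit3, Ifitm1 and Rtp4 kept their call under every alternative that tested them, and the other 11 lost it under at least 1 of 18. In such bulk tissue fewer cells of a type and less RNA per cell cannot be told apart.

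**Figure D1:**
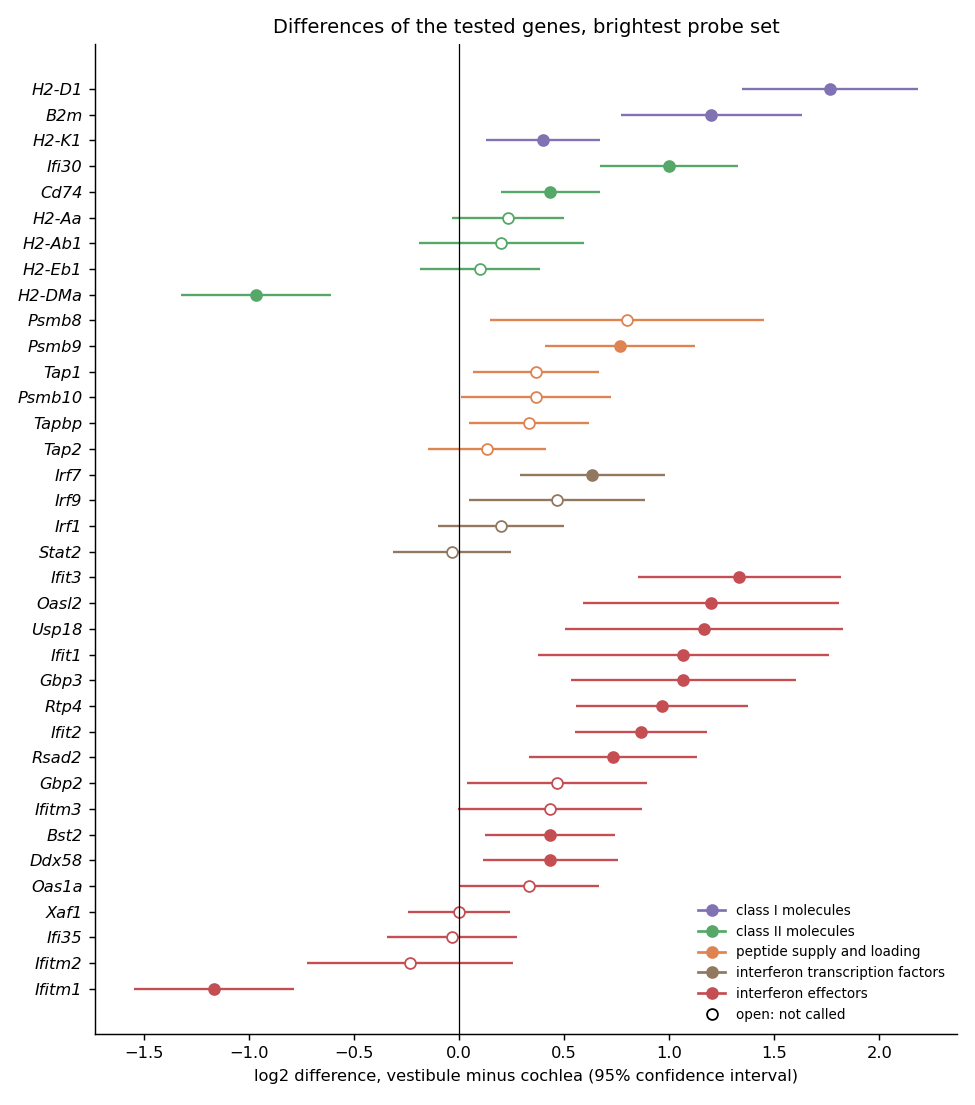
Log2 difference of vestibule minus cochlea for the 36 tested genes, with 95% confidence intervals from limma, grouped by role. Filled points are called genes, open points are not called, and the 2 called genes left of 0 are H2-DMa at -0.97 and Ifitm1 at -1.17.

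All 3 class I genes with a value were called higher in the vestibule. B2m, the light chain shared by every class I molecule, read 11.7, 11.7 and 11.8 on vestibular replicates 1, 2 and 3, and 10.6, 10.9 and 10.1 on the cochlear arrays in the same order, which holds for all array values that follow. H2-D1, a classical class I heavy chain, had 9.4, 9.4 and 9.1 in the vestibule and 7.5, 7.9 and 7.2 in the cochlea. The tissues did not overlap for either gene. Both differences of means exceeded the standard deviation among the 3 arrays of either tissue, which was at most 0.40 for B2m and 0.35 for H2-D1. The difference of B2m was 1.20 (standard error 0.19, limma adjusted p = 0.00268), and that of H2-D1 was 1.77 (standard error 0.18, 95% confidence interval 1.35 to 2.19, limma adjusted p = 2.7e-04), a fold change of 3.40. The second heavy chain, H2-K1, had 6.4, 6.3 and 6.1 in the vestibule and 5.9, 5.8 and 5.9 in the cochlea, which gave 0.40 (standard error 0.12, limma adjusted p = 0.055). The groups of H2-K1 did not overlap, but its fold change of 1.32 sat at the threshold, and the call was lost without any 1 of vestibular replicates 1 and 2 and cochlear replicates 1 and 2, at differences of 0.33 to 0.42.

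The probe sets of the class I heavy chains did not all read alike. Of the 9 probe sets of H2-D1 5 were tested, and besides the brightest, the dimmest of the 5 was called higher in the vestibule at 0.60 (limma adjusted p = 0.00899). In the opposite direction the second brightest read 6.4, 6.8 and 6.5 in the vestibule and 7.4, 7.9 and 7.4 in the cochlea, a difference of -1.0 that was called higher in the cochlea (limma adjusted p = 0.0043). Its cochlear arrays all lay above its vestibular arrays, the reverse of the brightest probe set. The other 2 tested probe sets of the gene stood at -0.33 and -0.37 and were not called, and the 4 below the filter lay between 0.03 and 0.77. Averaged over its 5 tested probe sets, H2-D1 had a difference of 0.13 (limma adjusted p = 0.46), so its call depended on the probe set. Both tested probe sets of H2-K1 were called higher in the vestibule, the dimmer one with 5.4, 5.8 and 5.3 in the vestibule and 4.7, 4.5 and 4.5 in the cochlea, at 0.93 (limma adjusted p = 0.00314). The cochlear mean of this dimmer probe set, 4.57, was below the lowest mean over all arrays that the filter kept, 4.68, so it was tested only through its vestibular level. For B2m the second probe set stood at 1.10 and was called as well (limma adjusted p = 0.00648). All tested probe sets of the heavy chains carry the suffix _x_at, which Affymetrix gives to probe sets whose probes may also match other transcripts, and class I heavy chains are a family of close relatives.

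**Figure D2:**
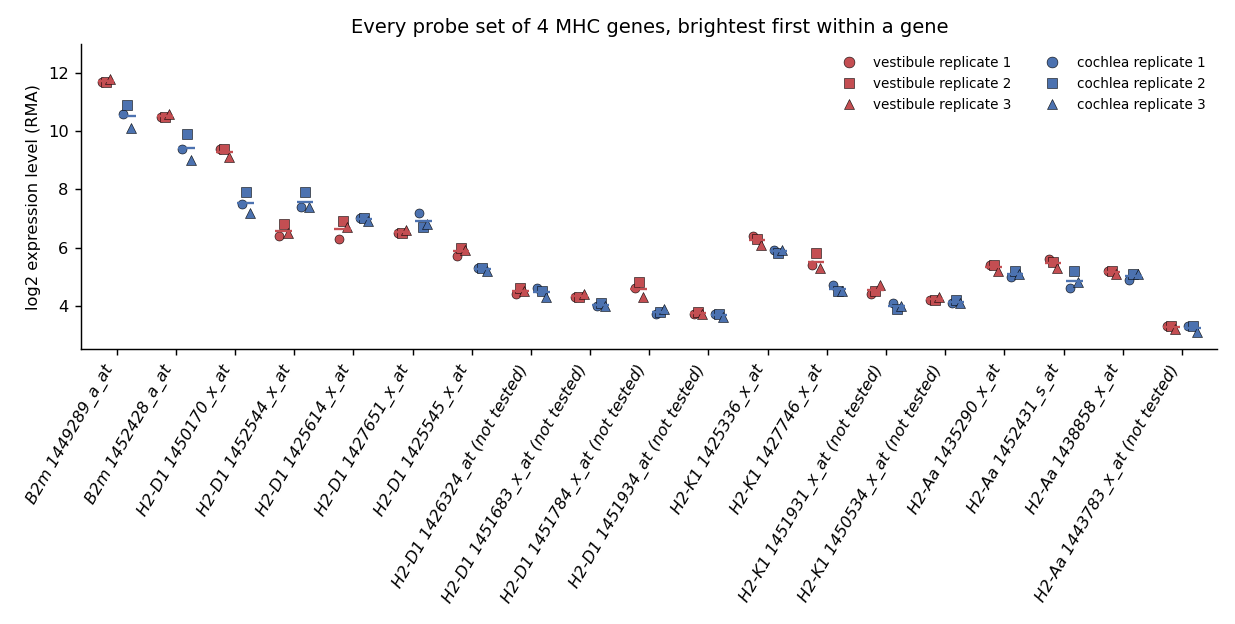
Log2 level on each array for every probe set of B2m, H2-D1, H2-K1 and H2-Aa, vestibular arrays in red on the left and cochlear arrays in blue on the right, with a line at each mean. Both probe sets of B2m are higher in the vestibule, while those of H2-D1 run from 1.77 to -1.0 in their differences.

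The promoters of the 2 heavy chain genes are shown because they carry the same stretch around enhancer A, an element of class I promoters that binds NF-kappa-B family factors. Sequences are from RefSeq on GRCm38.p6, the C57BL/6 reference genome and not that of C3H, and cover windows of 250 bases before to 50 bases after each gene start, with the matched letters in capitals. The core of the enhancer was searched as GGGATTCCC, or GGGAATCCC on the other strand. It was found in H2-D1, H2-K1 and Irf1, 3 of the 33 genes with a promoter sequence, and in 0.353% of 32851 promoters of the same length. The first count is of genes with a match in any of their promoters and the second of single promoters, which are unlike units. The window of H2-D1 is chr17:35262904-35262952 on the plus strand and that of H2-K1 is chr17:34000429-34000477 on the minus strand.
H2-D1: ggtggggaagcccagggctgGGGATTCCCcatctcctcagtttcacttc
H2-K1: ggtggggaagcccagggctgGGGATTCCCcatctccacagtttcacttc
The windows are identical at 48 of 49 positions. A match describes these letters and not a bound factor.

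The classical class II genes were not called, and the called genes of the class II pathway differed in direction. H2-Aa, H2-Ab1 and H2-Eb1, which encode chains of the classical class II molecules, differed by 0.23, 0.20 and 0.10 and were not called (limma adjusted p = 0.238, 0.50 and 0.65). Their means over all arrays were 5.22, 5.13 and 5.68, none above the median of all probe sets, 5.68. At such dim levels a missing call does not show equal expression. A dimmer probe set of H2-Aa was called higher in the vestibule at 0.60 (limma adjusted p = 0.0425), with 5.6, 5.5 and 5.3 in the vestibule and 4.6, 5.2 and 4.8 in the cochlea. The dimmest tested probe set of the gene stood at 0.13 and was not called (limma adjusted p = 0.49). Ciita, the master regulator of class II transcription, read 4.63 in the vestibule and 4.50 in the cochlea, below the filter's lowest mean of 4.68. Cd74, the invariant chain that escorts class II molecules, was narrowly higher in the vestibule, with 6.1, 6.1 and 6.1 against 5.7, 5.7 and 5.6 in the cochlea. Its difference was 0.43 (standard error 0.10, limma adjusted p = 0.0216), and it fell below the fold threshold, to 0.37, with median centring.

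Ifi30 and H2-DMa, both active in the endosomes where class II molecules meet their peptides, moved in opposite directions. Ifi30, an interferon-induced reductase that unfolds proteins for processing, read 11.4 on each vestibular array and 10.3, 10.7 and 10.2 on the cochlear arrays. The difference was 1.00 (standard error 0.14, limma adjusted p = 0.00163), and every vestibular array exceeded the highest cochlear array. H2-DMa, a chain of the molecule that exchanges peptides on class II, had 6.8, 7.0 and 6.6 in the vestibule and 7.5, 7.9 and 7.9 in the cochlea. Here the cochlear arrays were all higher, at -0.97 (standard error 0.16, limma adjusted p = 0.00309). A second probe set of H2-DMa was below the filter, at -0.40. In all, 2 of 6 tested class II genes were called higher in the vestibule, 1 was called higher in the cochlea and 3 were not called, with a median of 0.22.

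Other genes of the class II pathway were called where they encode lysosomal proteases. Lgmn, an asparagine endopeptidase, was higher in the vestibule at 1.80, with 10.6, 10.6 and 10.6 against 8.9, 9.0 and 8.5 in the cochlea, and Ctss, the cathepsin that trims the invariant chain, at 1.10. The remaining 6 of 8 tested genes of that list, among them Rfx5 and Rfxank of the complex that binds class II promoters, were not called and lay between -0.27 and 0.23.

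Genes that supply peptides to class I molecules all had positive differences, but 1 of 6 tested was called. Psmb9, a catalytic subunit of the immunoproteasome, read 7.4, 7.5 and 7.0 in the vestibule and 6.7, 6.5 and 6.4 in the cochlea. This was a difference of 0.77 without overlap (standard error 0.16, limma adjusted p = 0.0104). Psmb8, its partner subunit, had 6.4, 6.4 and 6.3 in the vestibule and 6.1, 4.8 and 5.8 in the cochlea. Cochlear replicate 2 lay far below its neighbours, and at 0.80 (standard error 0.29) the gene missed the threshold, with a limma adjusted p of 0.103. It passed without cochlear replicate 1, at 1.07, and without cochlear replicate 2, at 0.42. Psmb10, the third immunoproteasome subunit, stood at 0.37 with overlapping arrays (limma adjusted p = 0.166).

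The peptide transporter and its tether gave smaller values. Tap1, a subunit of the transporter that pumps peptides into the endoplasmic reticulum, had 6.4, 6.2 and 6.1 in the vestibule and 5.9, 5.7 and 6.0 in the cochlea, and Tapbp, or tapasin, which holds class I molecules at the transporter, had 10.6, 10.5 and 10.3 in the vestibule and 10.2, 10.2 and 10.0 in the cochlea. Neither overlapped, and neither was called, at 0.37 and 0.33 (limma adjusted p = 0.104 and 0.119), although a dimmer probe set of Tapbp was called at 0.53. Tap2, the other subunit, differed by 0.13 (limma adjusted p = 0.53). Nlrc5, which switches on class I transcription, read 4.1, 4.3 and 4.2 in the vestibule and 3.7, 3.8 and 3.8 in the cochlea, without overlap but below the filter and so untested. The standard proteasome subunits Psmb1 to Psmb7, which the immunoproteasome subunits in part replace, differed by -0.17 to 0.27, and limma called 0 of 7, with 0 at an unadjusted p under 0.05.

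**Figure D3:**
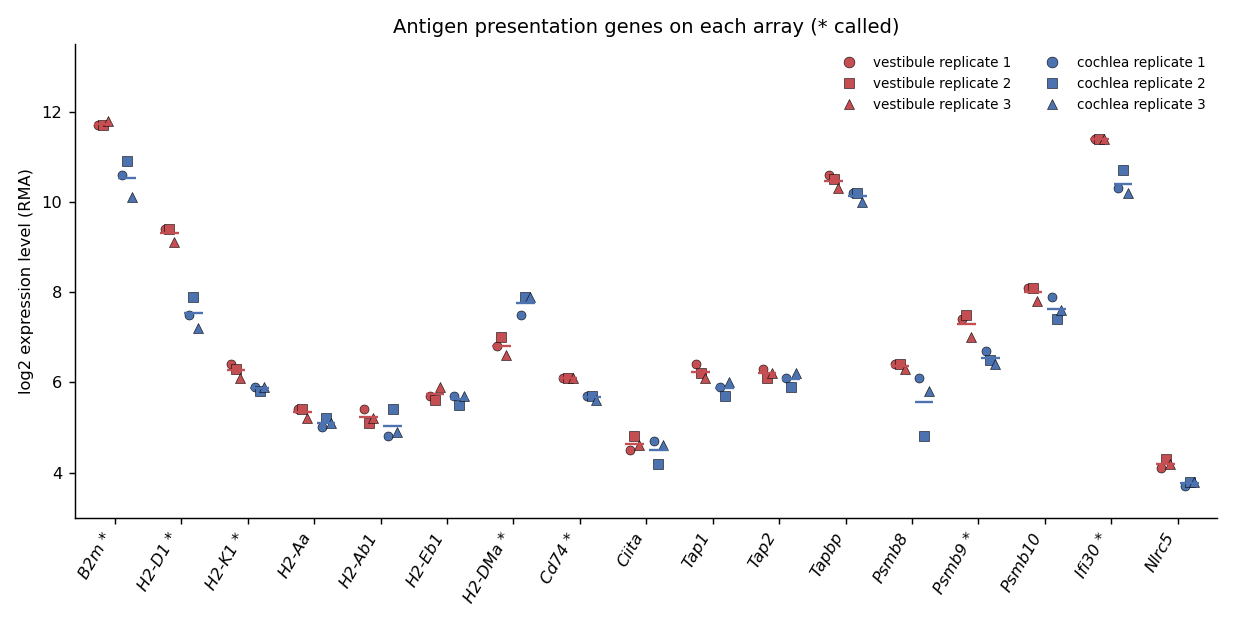
Log2 level on each array for the 17 measured class I, class II and peptide supply genes, vestibular arrays in red on the left and cochlear arrays in blue on the right, with lines at the means and an asterisk at called genes. At the brightest probe set, B2m, H2-D1 and Ifi30 are higher on every vestibular array, and H2-DMa is higher on every cochlear array. A dimmer probe set of H2-D1, not drawn here, read the reverse, at -1.0.

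Of the further class I pathway genes 4 of 10 tested were called towards the vestibule and 0 towards the cochlea, with a median of 0.22. Of all tested genes 15.1% were called towards the vestibule and 7.97% towards the cochlea. They were H2-M3, a nonclassical class I chain, at 0.73, Erap1, an aminopeptidase that trims peptides, at 0.63, Fcgrt, the neonatal Fc receptor, at 0.60, and Cd1d1, a lipid-presenting relative, at 0.57. On RefSeq's map of chromosome 17, Psmb9, Tap1, Psmb8 and Tap2 follow each other with no coding gene between them, and 2 coding genes lie between H2-DMa and Psmb9. Of the 11 tested genes of the set on this chromosome 3 were called higher in the vestibule and 1, H2-DMa, in the cochlea.

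Among the transcription factors 1 of 4 was called. Irf7, which amplifies type I interferon production, read 6.0, 6.1 and 5.7 in the vestibule and 5.3, 5.5 and 5.1 in the cochlea. This difference of 0.63 (standard error 0.15, limma adjusted p = 0.0216) came without overlap, and it was lost without vestibular replicate 1 or 2 at 0.55 to 0.60. Irf9, the DNA-binding part of the complex that type I interferon activates, stood at 0.47 with overlapping arrays (limma adjusted p = 0.136), and Irf1 at 0.20 (limma adjusted p = 0.371). Stat2, which joins Irf9 in that complex, differed by -0.03 (limma adjusted p = 0.887, 95% confidence interval -0.32 to 0.25).

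Interferon receptor subunits differed among themselves. Ifnar2, a subunit of the type I receptor, read 9.5, 9.6 and 9.4 in the vestibule and 9.1, 8.9 and 8.8 in the cochlea, a difference of 0.57 (limma adjusted p = 0.0143). Its partner Ifnar1 had a difference of 0.00 (limma adjusted p = 1.0). The subunits of the interferon gamma receptor, Ifngr1 and Ifngr2, stood at 0.37 and -0.03 and were not called (limma adjusted p = 0.118 and 0.963). For the interferon lambda receptor, Ifnlr1 was called at 0.40 (limma adjusted p = 0.0442), and Il10rb stood at 0.07. In the whole list of receptors and signalling genes 5 of 16 tested were called higher in the vestibule, against 0 for the cochlea, and the largest difference was that of Irf8, a factor also required by macrophages, at 1.13. The 6 measured interferon genes, Ifna1, Ifna2, Ifna4, Ifna5, Ifnb1 and Ifng, all had means at or below the lowest mean the filter kept, with untested differences of -0.07 to 0.17, so no difference in a ligand was detectable here.

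The interferon-induced effectors held most of the calls, with 10 of 17 higher in the vestibule, 1 higher in the cochlea and 6 not called, at a median of 0.47. An ordinary test of each probe set alone, with its own variance, called 3 of them towards the vestibule and 1 towards the cochlea. The Ifit genes, whose proteins bind foreign RNA and hold back its translation, were all called higher in the vestibule. Ifit3 read 8.0, 8.4 and 7.5 in the vestibule and 6.8, 6.5 and 6.6 in the cochlea, and Ifit2 read 7.9, 7.9 and 7.7 in the vestibule and 7.2, 6.8 and 6.9 in the cochlea. The groups of both were apart, at differences of 1.33 for Ifit3 (standard error 0.21, limma adjusted p = 0.00282) and 0.87 for Ifit2 (standard error 0.14, limma adjusted p = 0.00276). Ifit1 spread more widely, with 6.1, 7.2 and 6.2 in the vestibule and 5.8, 5.0 and 5.5 in the cochlea, and vestibular replicate 2 stood 1 log2 unit or more above the other vestibular arrays. Its difference was 1.07 (standard error 0.30, limma adjusted p = 0.0461), and the call was lost without any 1 of vestibular replicates 2 and 3 and cochlear replicates 2 and 3, at 0.72 to 1.22. In RefSeq's gene order Ifit2 and Ifit3 are neighbours on chromosome 19, and 3 coding genes lie between Ifit3 and Ifit1.

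Genes for antiviral enzymes and RNA sensors were next. Oasl2, a relative of the oligoadenylate synthetases, had 6.0, 6.9 and 5.7 in the vestibule and 5.1, 5.0 and 4.9 in the cochlea, and differed by 1.20 (standard error 0.27, limma adjusted p = 0.0159). Rsad2, which encodes viperin, had 7.7, 8.2 and 7.6 in the vestibule and 7.0, 7.0 and 7.3 in the cochlea, at 0.73 (standard error 0.18, limma adjusted p = 0.0216). In both genes vestibular replicate 2 was the highest array, and the tissues did not overlap. The call of Oasl2 was lost without cochlear replicate 3, at 1.15, and that of Rsad2 without cochlear replicate 1, at 0.68. Ddx58, which encodes the RNA sensor RIG-I, had 7.4, 7.7 and 7.5 in the vestibule and 7.3, 6.9 and 7.1 in the cochlea. Its 0.43 (limma adjusted p = 0.0761) was close to the threshold and was lost without any 1 array other than cochlear replicate 1, while a dimmer probe set stood at 0.47 and was called too. Oas1a, an oligoadenylate synthetase, was not called at 0.33 (limma adjusted p = 0.178).

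Regulators of the response and GTPases gave further calls. Usp18, a protease that removes ISG15 and dampens receptor signalling, read 5.0, 6.1 and 5.3 in the vestibule and 4.7, 3.9 and 4.3 in the cochlea, which gave 1.17 (standard error 0.29, limma adjusted p = 0.0264). The cochlear mean of 4.30 was below the lowest mean the filter kept, so Usp18 was tested only through its vestibular level, and its call was lost without vestibular replicate 3 or cochlear replicate 2 or 3, at 0.97 to 1.25. Rtp4, an interferon-induced inhibitor of viral replication, read 8.2, 8.8 and 8.2 in the vestibule and 7.3, 7.4 and 7.6 in the cochlea, and was higher in the vestibule by 0.97 (standard error 0.18, limma adjusted p = 0.00636). Gbp3, a guanylate-binding protein of host defence, had 8.6, 8.3 and 8.3 in the vestibule and 7.9, 6.9 and 7.2 in the cochlea. The difference of Gbp3 was 1.07 (standard error 0.24, limma adjusted p = 0.015), lost without vestibular replicate 1 or cochlear replicate 3 at 0.97 to 1.00. That of Gbp2, on the same chromosome, was 0.47 and not called (limma adjusted p = 0.143). The cochlear mean of Gbp2, 4.53, was below the lowest mean the filter kept, so Gbp2 too was tested only through its vestibular level. A second probe set of Gbp2, below the filter and so untested, read 5.4, 5.0 and 4.7 in the vestibule and 4.3, 4.1 and 4.1 in the cochlea, without overlap and with a larger difference of 0.87. Xaf1, a proapoptotic gene, stood at 0.00 (limma adjusted p = 1.0, 95% confidence interval -0.24 to 0.24), and Ifi35, an interferon-induced leucine zipper protein, at -0.03 (limma adjusted p = 0.89), with its 3 probe sets between -0.03 and 0.03.

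The membrane proteins that restrict viruses were split. Ifitm1, Ifitm2 and Ifitm3, which hinder the entry of viruses into cells, lie next to each other on chromosome 7. Ifitm1 read 8.7, 9.2 and 8.8 in the vestibule and 9.9, 10.3 and 10.0 in the cochlea, so that every cochlear array was above every vestibular array, by -1.17 (standard error 0.17, limma adjusted p = 0.00151). Ifitm3 had 10.2, 10.4 and 10.3 in the vestibule and 9.4, 10.1 and 10.1 in the cochlea, which gave 0.43 and no call (limma adjusted p = 0.181, 95% confidence interval -0.004 to 0.87), and Ifitm2 stood at -0.23 with overlapping arrays (limma adjusted p = 0.53). The interval of Ifitm1, -1.55 to -0.79, lay apart from those of both neighbours, although a test between the genes was not made. Bst2, or tetherin, which holds budding virus at the cell surface, had 6.4, 6.5 and 6.1 in the vestibule and 6.0, 5.8 and 5.9 in the cochlea. It was called at 0.43 (limma adjusted p = 0.0654) and lost its call without any 1 array other than vestibular replicate 3.

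**Figure D4:**
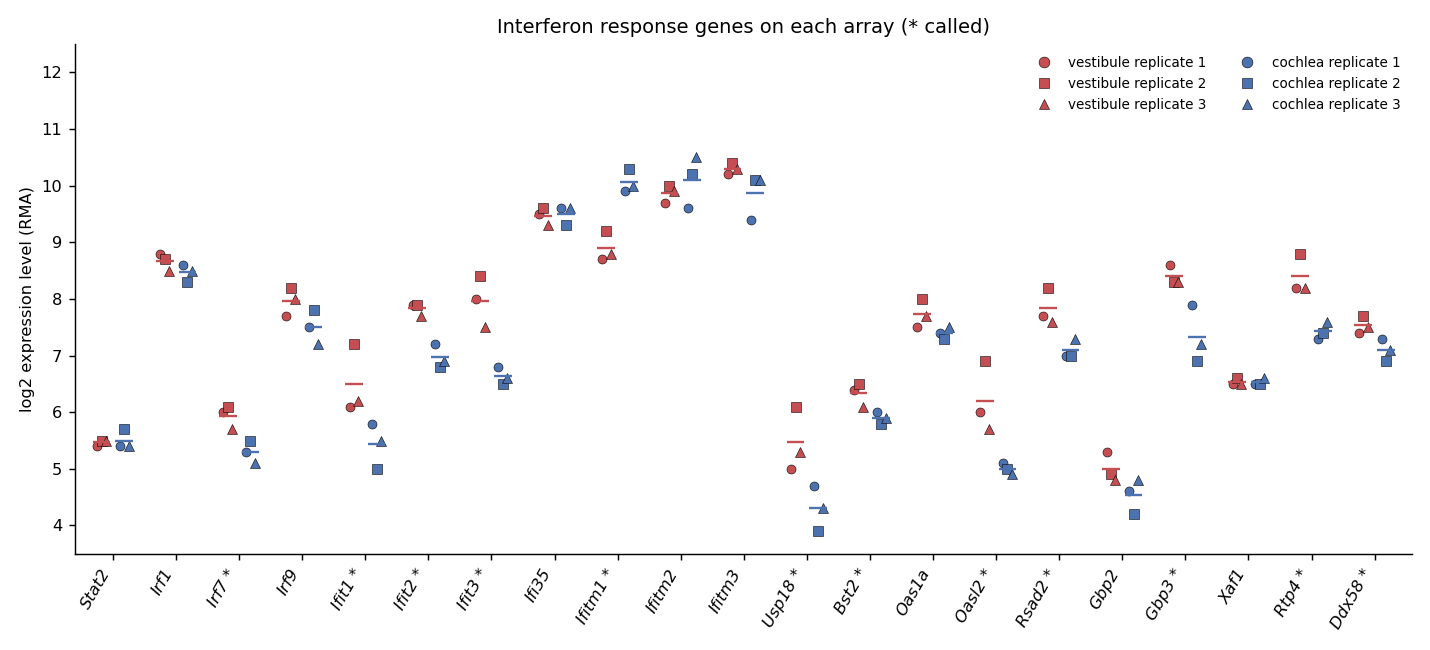
Log2 level on each array for the 21 measured interferon transcription factors and effectors, vestibular arrays in red on the left and cochlear arrays in blue on the right, with lines at the means and an asterisk at called genes. Vestibular replicate 2, the red square, is the highest vestibular array in 14 of the 17 effectors, and Ifitm1 is the called gene with higher cochlear arrays.

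The promoters of these genes were searched for the interferon-stimulated response element, the site that the complex of STAT proteins and IRF9 binds. The letters searched were its core GAAANNGAA, read as TTCNNTTTC on the other strand, and overlapping matches were kept. They were found in 14 of the 33 genes with a promoter sequence, or 42.4%, and in 8.56% of all 32851 promoters of the same length. A gene counted once when any of its promoters matched, so these shares are in unlike units. Of the 14 genes with a promoter sequence that were called higher in the vestibule 7 held a match, as did 5 of the 17 other tested genes, so matches stood on both sides of the call. Only these exact letters were counted, so a gene without a match, such as H2-D1 or H2-K1, may still hold a variant of the element. The remaining 2 matches were those of H2-T23 and Isg15, which have no value here. The windows of 4 called genes and of 2 genes not called, Ifitm3 and Stat2, are shown with the matched letters in capitals, on the strand of each gene.
B2m, chr2:122147528-122147576, plus strand: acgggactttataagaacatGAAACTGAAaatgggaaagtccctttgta
Ifit1, chr19:34640760-34640833, plus strand: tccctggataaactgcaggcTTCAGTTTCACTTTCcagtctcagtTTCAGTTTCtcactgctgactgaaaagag
Ifit3, chr19:34583354-34583455, plus strand: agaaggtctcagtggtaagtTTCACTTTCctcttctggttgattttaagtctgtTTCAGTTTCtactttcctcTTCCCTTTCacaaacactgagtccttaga
Gbp3, chr3:142559980-142560034, plus strand: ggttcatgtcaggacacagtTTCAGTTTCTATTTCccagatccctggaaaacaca
Ifitm3, chr7:141010697-141010762, minus strand: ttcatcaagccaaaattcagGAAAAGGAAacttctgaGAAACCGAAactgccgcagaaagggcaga
Stat2, chr10:128270257-128270305, plus strand: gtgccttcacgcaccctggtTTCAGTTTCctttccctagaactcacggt
Ifitm2 also held a match, and these letters were not in the window of Ifitm1, the neighbour that was higher in the cochlea, nor in those of H2-DMa, Ifit2 and Ifi30.

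Interferon-induced genes outside the set were called in both directions as well. Of 35 tested 14 were called towards the vestibule and 4 towards the cochlea, with a median of 0.37. The largest positive differences were those of Ly6e, a surface protein of host defence, at 2.27, with 8.5, 8.5 and 8.1 in the vestibule and 6.3, 6.7 and 5.3 in the cochlea, of Mndal, a nuclear member of the interferon-inducible p200 family, at 1.57, and of the GTPase gene Ifi47 at 1.37. Mndal read 4.6 on all 3 cochlear arrays, below the lowest mean the filter kept, so it was tested only through its vestibular level. Iigp1, a GTPase that acts against intracellular parasites, was higher in the cochlea at -1.33, with 7.8, 7.6 and 7.3 in the vestibule and 8.7, 9.2 and 8.8 in the cochlea. The other 3 genes higher in the cochlea, Gbp6 at -0.67, Cmpk2 at -0.67 and Epsti1 at -0.43, were named after their values were seen. Of the sensors of foreign nucleic acid 7 of 16 were called towards the vestibule and 0 towards the cochlea, with Tlr3, which senses double-stranded RNA, at 1.10, the adaptor genes Mavs and Sting1 at 0.90 each, and Ifih1, which encodes the RNA sensor MDA5, at 0.80.

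The effectors were mostly highest on the same vestibular array. Vestibular replicate 2 was the highest of the 3 vestibular arrays, with no tie, in 14 of the 17 effectors and in 25 of the 40 measured interferon-induced genes outside the set, while it was the highest in 25.6% of all tested genes. It was the highest in 0 of the 3 class I genes and 2 of the 7 class II genes. The mean log2 level of the effectors was 7.57, 7.92 and 7.49 on vestibular replicates 1, 2 and 3, and 7.18, 7.01 and 7.20 on the cochlear arrays, so each vestibular array was above each cochlear array. Cochlear replicate 2 was the lowest cochlear array in 10 of the 17 effectors. The matching share over all tested genes was not computed, so this count describes the effectors only. Without vestibular replicate 2, 12 genes of the set were called towards the vestibule and 2 towards the cochlea.

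Markers of macrophages were mostly higher in the vestibule. Of 18 tested macrophage markers 17 were called higher in the vestibule, with a median of 1.58, led by Mrc1 at 2.33, Cd163 at 2.20, Cd68 at 2.03 and Lyz2 at 1.90. The summed log2 level of all 19 measured markers ran between 154.7 and 160.6 over the vestibular arrays and between 126.7 and 131.9 over the cochlear arrays. Vestibular replicate 2 was the highest vestibular array in 15 of the 19 markers and in 14 of the 17 effectors. Cochlear replicate 2 was the highest cochlear array in 8 of the 19 markers and the lowest in 4. In the 17 effectors it was the highest in 1 and the lowest in 10. No share over all tested genes was computed for a cochlear array. Mean marker levels were 8.14, 8.45 and 8.22 on vestibular replicates 1, 2 and 3, and 6.91, 6.94 and 6.67 on the cochlear arrays. Macrophages make class I, class II and interferon-induced transcripts, and the part of these cells in the differences was not tested. H2-DMa and Ifitm1 differed in the opposite direction to the macrophage markers.

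Markers of other cells that present or recognise antigen were low in both tissues or not called higher in the vestibule. Of 7 measured dendritic cell markers 4 were below the filter, and 1 of the 3 tested was called, Zbtb46, higher in the cochlea at -0.67. Their summed level was 33.7 to 34.5 in the vestibule and 34.7 to 35.8 in the cochlea. For B cells 3 of 5 markers were below the filter and 0 of the 2 tested were called by limma, with Cd22 at 5.7, 5.7 and 6.0 in the vestibule and 5.6, 5.7 and 6.0 in the cochlea. The summed levels of the B cell markers overlapped, at 23.5 to 24.2 in the vestibule and 23.4 to 24.1 in the cochlea. For T and NK cells 5 of 8 were below the filter and 0 of the 3 tested were called, with Cd3e at 6.3, 6.2 and 6.5 in the vestibule and 6.4, 6.6 and 6.5 in the cochlea. Summed, the T and NK cell markers came to 38.6 to 38.9 in the vestibule and 39.0 to 40.1 in the cochlea.

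Other cells in the dissected tissue also differed between the organs. Of 11 tested endothelial markers 7 were called higher in the vestibule, led by Kdr at 2.97, Sox17 at 1.90 and Cdh5 at 1.80, and Emcn, named after its values were seen, was higher in the cochlea at -1.57. Their summed level was 89.9 to 91.6 in the vestibule and 79.4 to 81.5 in the cochlea, and vestibular replicate 2 was the highest vestibular array in 2 of the 12 measured. Mesenchyme markers were called higher in the vestibule in 5 of 10 and in the cochlea in 1, Schwann cell markers in 3 of 5 and 0, red blood cell markers in 2 of 3 and 0, and neuron markers in 0 of 8 and 7. The part of these cells in the differences of the MHC and interferon genes was not tested. For lists in which limma called 0 genes in a direction, an unadjusted p under 0.05 in that direction was found for 1 receptor or signalling gene, lower in the vestibule, for 1 neuron marker, higher there, and for 0 genes of the other lists, and an ordinary test of each probe set alone, with its own variance, called 0.

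**Figure D5:**
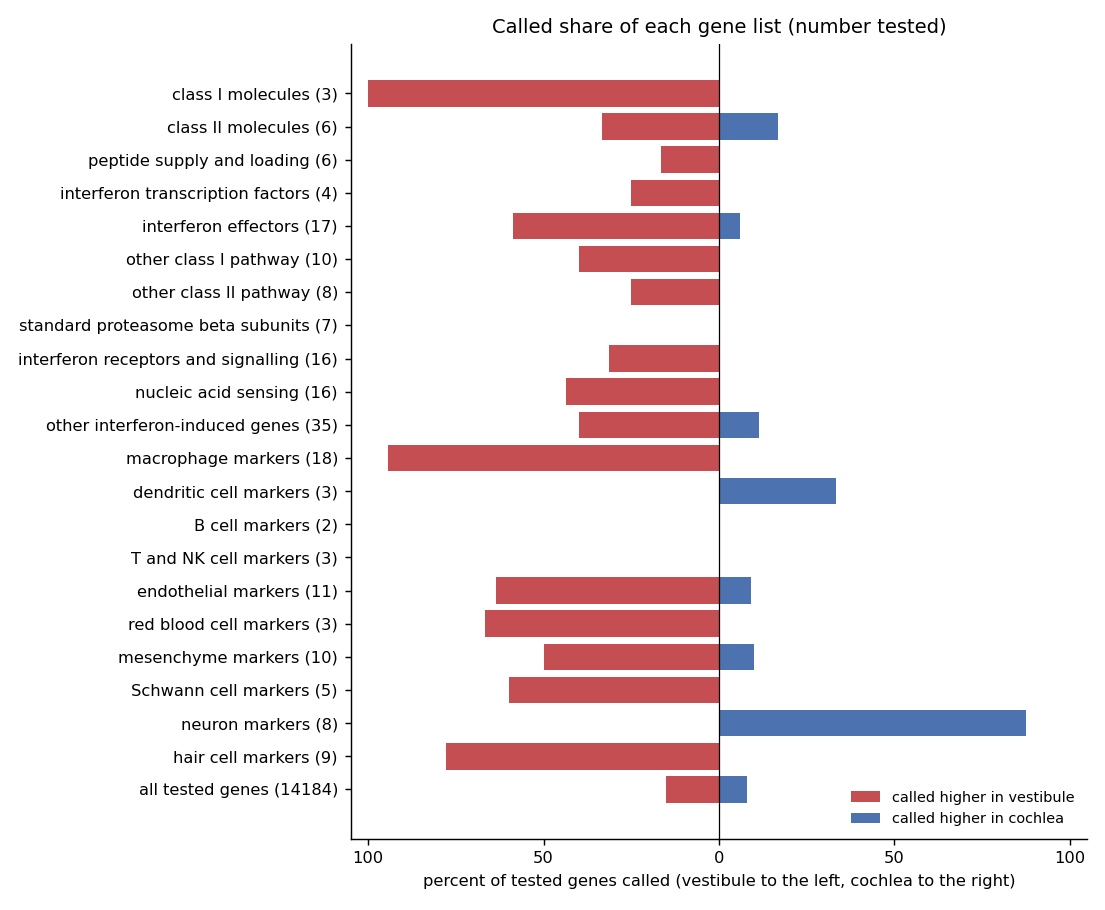
Percent of the tested genes of each list that were called higher in the vestibule (red, to the left) and higher in the cochlea (blue, to the right), with the number tested in brackets and all tested genes at the bottom. Macrophage markers are called in 17 of 18 towards the vestibule, the interferon effectors in 10 of 17, and the standard proteasome subunits in 0 of 7.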

How the data were processed

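RNA from 3 vestibular and 3 cochlear samples was amplified by the authors and hybridised to Affymetrix mouse arrays. The deposited log2 values were computed by the authors through RMA, which includes a quantile step, and were used as they stood, with 1 decimal. MAS5 gave their Present calls, both in versions not given in the sources used here. Present calls were not repeated: with 64 control probe sets removed, the brightest 29636 by mean level were tested, the number kept in the study, which set a lowest mean of 4.68. No pair of arrays was a copy, with 12% to 21.4% of values equal to 1 decimal.

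Vestibule minus cochlea was fitted with limma 3.58.1 (lmFit, eBayes, two-sided) in R 4.3.3 with the data.table package (1.17.8), with Benjamini-Hochberg adjustment over all tested probe sets. The script was tested on simulated data. Annotation gave 1 gene for 34945 probe sets, several for 932 and none for 9160, and no gene was named from several. Each gene is its brightest probe set. Of the set every gene is named, of each other list up to 4 called genes with the largest difference, the interferon receptors and 1 gene that is not reported here, and otherwise genes said to be named after their values were seen, with a few more from the lists given as uncalled examples. The 17 other lists hold 219 genes, of which 196 were measured. The members and lists were chosen with earlier results of these data known. Motifs were searched in RefSeq promoters of 33 of the 40 genes. The number of arrays limits the precision. Alternatives were other filters, scalings, thresholds, probe set rules and tests, the replicate number as a block, and each array left out. Promoters and figures used pandas 2.3.3, numpy 2.4.6 and matplotlib 3.10.9 in Python 3.11.15.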

Additional observations from a re-analysis of the deposited data

How the results depend on the processing

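The 17 genes of the set called higher in the vestibule became 10 with the 20000 brightest probe sets, where 21 of the 40 genes were tested, 9 with a plain t test of each probe set, and 11 when the replicate number entered the fit as a block. They numbered 18 with no filter, which added Nlrc5, 13 with median centring, 14 at an adjusted p under 0.05, 20 when the tested probe sets of a gene were averaged and 15 when those ending in _x_at or _s_at were dropped, while 2 genes were higher in the cochlea under all 18 alternatives. Array weights also gave 17, but with Irf9 and Ifitm3 in place of Bst2 and Ddx58. Leaving out 1 array gave 12 to 16 genes of the set higher in the vestibule and 2 to 2 in the cochlea, 57 to 69 and 10 to 15 genes of the other lists, and 2359 to 3865 and 1415 to 2787 of all probe sets, with the lowest counts of probe sets without vestibular replicate 1. The plain t test called 9 genes of the other lists higher in the cochlea, against 14 with limma, and of all probe sets 2195 towards the vestibule and 1322 towards the cochlea. No called difference changed sign. The block lost the calls of H2-K1, Ifit1, Usp18, Bst2, Rsad2 and Ddx58. The replicate numbers are shared only as numbers: deviations of same-numbered arrays from their tissue means correlated at 0.22, 0.15 and -5e-04, and each cochlear array correlated best with the vestibular array of its own number except replicate 3. Psmb10 was called without cochlear replicate 1 (0.50), H2-Ab1 (0.38) and Irf9 (0.62) without cochlear replicate 2, and Tap1 without cochlear replicate 3 (0.43). Cochlear arrays scattered more about their mean than vestibular arrays, with SDs of 0.17 to 0.22 against 0.13 to 0.14 in the vestibule. The cause of these changes was not tested.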

Other observations

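The 7 probe sets that the annotation ties to a gene of the set and to at least 1 other gene stand outside the comparison, since no gene can be named from them. Their differences ran from -0.10 to 0.83, 5 of them were tested, and 2 were called higher in the vestibule. H2-T23 and Isg15 were read only by such probe sets.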
